A study of Mus musculus with 48 samples.

Results

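The 10 genes described here code for the machinery that moves calcium through the heart muscle cell at each beat. They are Atp2a2, Pln, Sln, Ryr2, Casq1, Casq2, Hrc, Slc8a1, Cacna1c and Jph2, chosen by symbol and matched to the Ensembl identifiers of the tables. All 10 are among the 22055 genes listed in each of the 4 tables, whose values are TPM, a transcript abundance adjusted for length and scaled to a common total per library. The tables hold 48 libraries from wild-type C57BL/6 mice at postnatal day 42 (P42) and embryonic day 15.5 (E15.5), and cover 6 tissues, which are heart, brain, retina, kidney, liver and lung. Each tissue and stage has 2 biological replicates by RNA sequencing of poly(A)+ RNA, here called mRNA, and 2 by ribosome profiling, which sequences the stretches of message covered by ribosomes, here called footprints. All animals share the same genotype and strain, no treatment is recorded, and the labels do not say how many animals a sample held.

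In a heart muscle cell the L-type channel, whose pore is Cacna1c, lets calcium in when the membrane depolarises, and this opens the ryanodine receptor Ryr2 in the facing membrane of the sarcoplasmic reticulum. The junctophilin Jph2 holds these membranes together, and calsequestrin (Casq2 in heart, Casq1 mainly in fast skeletal muscle) and the histidine-rich calcium-binding protein Hrc hold calcium inside the store. The cell relaxes as the pump SERCA2, made from Atp2a2, returns calcium to the store, restrained by the small membrane proteins phospholamban (Pln) and sarcolipin (Sln), and as the sodium-calcium exchanger Slc8a1 carries calcium out. Atp2a2 also yields a form of the pump used in the endoplasmic reticulum of many other cell types, and the tables do not separate the forms.

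Phospholamban and sarcolipin are among the shortest membrane proteins of muscle, and their reading frames are shown because so little of either message is open to ribosomes in frame. The frames are read 5′ to 3′ from the GENCODE M21 transcripts on GRCm38, with the start and stop codons in capitals.
Pln: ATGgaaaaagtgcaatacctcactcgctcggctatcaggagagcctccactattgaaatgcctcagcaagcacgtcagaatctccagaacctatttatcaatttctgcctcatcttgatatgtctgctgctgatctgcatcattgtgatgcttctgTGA
Sln: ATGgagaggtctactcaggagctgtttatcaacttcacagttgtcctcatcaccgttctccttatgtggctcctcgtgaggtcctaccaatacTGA
The Pln frame has 52 codons before the stop in 1 coding exon (chr10:53343864-53344019 without the stop, plus strand), and the Sln frame has 31 codons in 1 coding exon (chr9:53853473-53853565, plus strand). Coding bases make up 5.65% of the exon bases of Pln and 7.06% of those of Sln. The share was 15.7% for Slc8a1, 33.3% for Cacna1c, 45.8% for Casq2, 49.1% for Jph2, 51.7% for Atp2a2, 52.0% for Ryr2, 62.3% for Casq1 and 86.3% for Hrc. Footprints come from coding bases for the most part. The values of both assays are labelled as exon-level TPM. Whether all exon bases or only coding ones were used is not given in the sources used here. Levels of the ratio are compared between genes with that limit.

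The promoters of Pln and Casq2 are shown because these messages followed each other most closely of all pairs of the 10 genes over tissues and stages (Pearson r = 0.958 over 12 group means that share libraries, as a description). They are RefSeq windows of GRCm38.p6, 250 bases before to 50 bases after the start, and capitals mark the motifs named after the sequences, while matches to CANNTG are left in lower case.
Pln, chr10:53337436-53337735, plus strand: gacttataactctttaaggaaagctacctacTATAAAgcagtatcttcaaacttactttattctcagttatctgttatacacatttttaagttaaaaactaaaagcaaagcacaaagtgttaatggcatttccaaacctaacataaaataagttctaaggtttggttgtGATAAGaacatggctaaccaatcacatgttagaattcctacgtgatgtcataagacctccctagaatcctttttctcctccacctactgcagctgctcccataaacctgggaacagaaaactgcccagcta
Casq2, chr3:102086165-102086464, plus strand: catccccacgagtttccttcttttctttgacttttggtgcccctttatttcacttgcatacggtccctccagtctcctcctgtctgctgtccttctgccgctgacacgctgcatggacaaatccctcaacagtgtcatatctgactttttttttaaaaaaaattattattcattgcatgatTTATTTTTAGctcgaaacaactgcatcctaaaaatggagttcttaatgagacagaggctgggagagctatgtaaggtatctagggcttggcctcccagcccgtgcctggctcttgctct
In capitals, the Pln window holds a TATAAA and a GATAAG, and the Casq2 window holds a MEF2 match, all read on the strand shown. The table had 11 windows for 8 of the 10 genes, with no entry used for Sln or Atp2a2. Of all 32851 windows searched on both strands, 13.6% held TATAAA, 7.44% held GATAAG and 3.19% held a MEF2 match. The letters CANNTG were in all 11 windows and in 72.3% of all windows, CATTCC was in 0 of the 11 and in 14.7% of all windows, and GATAAG was also in the Slc8a1 window. A match is a description of letters, not a site of binding.

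Depth is unknown because the tables give no counts. The TPM listed summed to 48.9% to 93.4% of the full TPM scale by mRNA and 23.1% to 61.1% by footprint. In heart, mitochondrially encoded genes took 54.2% to 55.5% of that scale at P42 and 14.5% to 14.98% at E15.5 by mRNA. The median tested gene of heart was lower at P42 by mRNA (log2 -1.61) and by footprint (log2 -1.01), so each heart change is also given relative to that gene, and calls are said to hold under every scaling when they also passed with median-of-ratios scaling, with nuclear genes rescaled and after centring on the median gene. Replicates correlated at r = 0.948 or higher in log2(TPM + 1), and all 7 cardiomyocyte markers reached 1 TPM in heart at both stages. In E15.5 liver, replicate 2 by mRNA held 740 TPM of skeletal muscle markers against 27.1 TPM in replicate 1. In E15.5 heart, replicate 1 by footprint held 17803 TPM of erythroid markers against 2847 TPM in replicate 2. In E15.5 lung, the footprint replicates correlated at r = 0.998, the closest of the footprint pairs.

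In heart, the pump message was abundant at both stages and its footprints rose. Atp2a2 had 1435 and 1141 TPM of mRNA at P42, against 849 and 836 TPM at E15.5. Its footprints were 2238 and 2026 TPM at P42 and 767 and 947 TPM at E15.5, so the stages did not overlap in either layer. The footprint rise was 1.32 ± 0.22 log2 (SE, adjusted p = 3.6e-05, limma) and held under every scaling. The mRNA difference was 0.60 ± 0.22 log2 and stayed under the threshold of 1 log2 in the deposited TPM, but was called higher in each of the other scalings (2.21 relative to the median gene). In bulk tissue, a change in the share of muscle cells and a change in message per cell cannot be told apart. Of 7 cardiomyocyte markers, 2 were called higher by mRNA (Myh6 and Tnni3, under every scaling) and 0 lower. Over all genes, 2.73% were higher and 74.6% lower by mRNA. By footprint 1 marker was higher (Myh6) and 1 lower (Tnnt2), where 10.2% of all genes were higher and 50.6% lower. The 7 markers summed to 18721 and 15583 TPM of mRNA at P42 and 23329 and 21902 TPM at E15.5. Cardiac actin Actc1 held 8303 and 6036 TPM of that at P42 and 15817 and 14899 TPM at E15.5. By footprint the 7 markers summed to 15937 and 14380 TPM at P42 and 33783 and 23875 TPM at E15.5. The part of cell number in the Atp2a2 change was not tested.

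Phospholamban was the most abundant of the 10 messages and kept its place at both stages. Pln had 2890.3 and 2395 TPM of mRNA at P42, and 2129 and 2119 TPM at E15.5. By footprint it had 926 and 791 TPM at P42, against 642 and 364 TPM at E15.5. The P42 libraries were the higher in both layers, yet neither difference passed in the deposited TPM (0.31 ± 0.35 log2 by mRNA and 0.82 ± 0.52 by footprint), while both were called higher in each of the other scalings. The Pln to Atp2a2 ratio within a library, which does not depend on scaling, was 2.01 and 2.10 at P42 and 2.51 and 2.54 at E15.5 by mRNA. By footprint this ratio was 0.414 and 0.391 at P42, against 0.837 and 0.385 at E15.5, where the stages overlapped. Of the exon bases of Pln, 1785 of 2759 overlap Cep85l and Gm47644 on the other strand, and whether counting used strand is not given in the sources used here. Cep85l itself had 37.3 and 37.9 TPM of mRNA in P42 heart and 21.7 and 21.2 TPM in E15.5 heart.

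Sarcolipin fell, and by the most of the 10 in both layers. Sln had 0.960 and 1.77 TPM of mRNA at P42, against 75.3 and 74.9 TPM at E15.5. Its footprints were 1.28 and 0.980 TPM at P42 and 39.8 and 38.1 TPM at E15.5. The message was thus near the low-value filter of 1 TPM in every P42 heart library and well above it in every E15.5 one. The fall was -5.03 ± 0.64 log2 by mRNA (adjusted p = 1.6e-07) and -4.23 ± 0.20 by footprint (adjusted p = 1.2e-11), on the log2(TPM + 1) scale that understates changes of low values, and both held under every scaling. The Sln to Atp2a2 ratio within a library was 0.000669 and 0.00155 at P42 and 0.0887 and 0.0896 at E15.5 by mRNA. An exact permutation of 2 against 2 libraries gave p = 0.333 (2-sided), the smallest this design allows, here as for the other within-library ratios whose stages did not overlap.

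Sarcolipin is known as an atrial gene in the adult mouse heart, and 4 of 5 atrial markers moved with it in each layer. Of 5 atrial markers, 4 fell in heart by mRNA, where 74.6% of all genes were called lower, and 4 by footprint, where 50.6% were. The 1 that did not fall by mRNA was called higher after centring. Under every scaling 3 fell by mRNA, where 9.78% did, and 4 by footprint, where 9.48% did. Their summed mRNA was 198 and 358 TPM at P42 and 6879 and 6249 TPM at E15.5, and their summed footprints were 102 and 93.6 TPM at P42 and 8028 and 5965 TPM at E15.5. The atrial light chain gene Myl7 had 19.1 and 26.1 TPM of mRNA at P42, against 3199 and 2929 TPM at E15.5, and Bmp10 was listed at 0 in both P42 heart libraries by mRNA. Of 4 ventricular markers, 3 also fell in each layer (Myh7, Hey2 and Irx4), 2 by mRNA and 3 by footprint under every scaling. Myh7, a myosin heavy chain of the fetal ventricle, had 17.1 and 17.4 TPM of mRNA at P42, against 1844 and 1782 TPM at E15.5. The fourth, the light chain gene Myl2, stood at 7787 and 8027 TPM at P42 and 8589 and 8301 TPM at E15.5. The part of atrial tissue in the Sln difference was not tested.

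**Figure D1:**
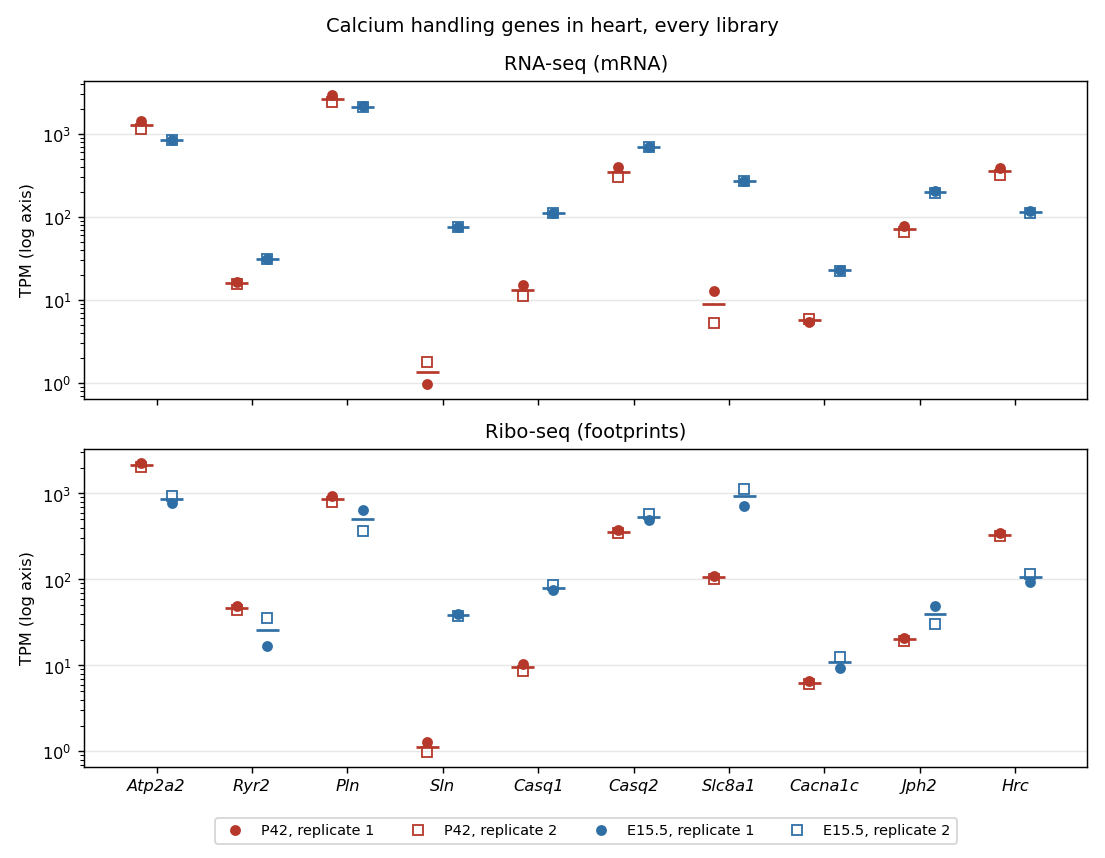
TPM of the 10 genes in every heart library on a log axis, P42 left of E15.5 for each gene, with mRNA above and footprints below; horizontal bars are means of 2 replicates. Sln, Casq1 and Slc8a1 sit far lower at P42 in both layers, while Hrc sits higher.

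The calcium release channel gave different answers in its 2 layers. Ryr2 had 16.2 and 15.6 TPM of mRNA at P42, against 30.6 and 31.0 TPM at E15.5. Its footprints were 49.1 and 44.6 TPM at P42 and 16.9 and 35.4 TPM at E15.5. P42 libraries were thus the lower by mRNA and the higher by footprint, without overlap in either. Neither was called in the deposited TPM (-0.91 ± 0.18 log2 by mRNA and 0.90 ± 0.24 by footprint). The footprint difference was called higher in each of the other scalings, and it rests on which E15.5 library is kept, at 1.41 log2 without E15.5 replicate 2 (adjusted p = 1.6e-05) and 0.39 without E15.5 replicate 1 (adjusted p = 0.095). By mRNA the sign turned to 1.04 under median-of-ratios scaling and to 0.70 relative to the median gene.

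The store proteins moved apart. Hrc had 383 and 321 TPM of mRNA at P42, against 116 and 111 TPM at E15.5. Its footprints were 344 and 317 TPM at P42 and 94.6 and 117 TPM at E15.5. Hrc rose by 1.62 ± 0.40 log2 by mRNA (adjusted p = 0.00060) and by 1.64 ± 0.25 by footprint (adjusted p = 1.0e-05), under every scaling. It was the only one of the 10 called higher in both layers in the deposited TPM.

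Casq2, the cardiac calsequestrin, had 394 and 305 TPM of mRNA at P42 and 694 and 687 TPM at E15.5. By footprint it had 374 and 344 TPM at P42, against 489 and 573 TPM at E15.5. Its P42 values were the lower in both layers, but neither difference passed (-0.99 ± 0.59 and -0.56 ± 0.34 log2), and both were positive relative to the median gene (0.62 and 0.46). Casq1, the skeletal muscle calsequestrin, fell further. Casq1 had 15.1 and 11.2 TPM of mRNA at P42, against 109.7 and 110.4 TPM at E15.5, and footprints of 10.5 and 8.57 TPM at P42, against 75.1 and 86.0 TPM at E15.5. It fell by 2.98 ± 0.48 log2 by mRNA (adjusted p = 4.6e-06) and by 2.96 ± 0.19 by footprint (adjusted p = 6.0e-10). The footprint call held under every scaling, and the mRNA call was lost under median-of-ratios scaling (-1.04, adjusted p = 0.099). The Casq1 to Casq2 ratio within a library was 0.0383 and 0.0368 at P42 and 0.158 and 0.161 at E15.5 by mRNA, and 0.0280 and 0.0249 at P42 and 0.154 and 0.150 at E15.5 by footprint. Of 12 skeletal muscle markers, 4 of 5 tested fell by mRNA, where 74.6% of all genes were called lower. By footprint 5 of 6 fell, where 50.6% of all genes did. Under every scaling 0 fell by mRNA, where 9.78% of all genes did, and 4 by footprint, where 9.48% did. Without Acta1, which held most of the sum, the other 11 came to 4.61 and 3.05 TPM at P42 and 38.0 and 33.1 TPM at E15.5 by mRNA, and to 2.79 and 3.61 TPM at P42 and 65.1 and 31.5 TPM at E15.5 by footprint. Acta1 itself had 182 and 349 TPM of mRNA at P42 and 153 and 136 TPM at E15.5, and the part of skeletal muscle in the Casq1 change was not tested.

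The exchanger Slc8a1 fell steeply. It had 12.7 and 5.21 TPM of mRNA at P42, against 270.3 and 267 TPM at E15.5. Its footprints were 111 and 101 TPM at P42 and 724 and 1133 TPM at E15.5. The stages did not overlap in either layer. The fall was -4.87 ± 0.33 log2 by mRNA (adjusted p = 1.3e-11) and -3.08 ± 0.35 by footprint (adjusted p = 4.5e-07), both under every scaling. Against the pump, Slc8a1 footprints stood at a ratio of 0.0497 and 0.0499 at P42 and 0.943 and 1.20 at E15.5 within a library. The mRNA ratio was 0.00885 and 0.00456 at P42, against 0.318 and 0.320 at E15.5. Of its 18807 exon bases, 304 overlap AC122399.1 and Gm11096 on the other strand.

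The channel pore Cacna1c was the least abundant of the 10 at E15.5 by mRNA. It had 5.44 and 5.93 TPM of mRNA at P42, against 23.1 and 22.4 TPM at E15.5, and footprints of 6.59 and 6.02 TPM at P42, against 9.30 and 12.6 TPM at E15.5. The mRNA fell by 1.83 ± 0.16 log2 (adjusted p = 7.6e-10) in the deposited TPM, near the median gene (-0.22 relative to it), and the call was lost under each of the other scalings. The footprint difference of -0.70 ± 0.18 log2 did not reach the threshold. Jph2, the junctophilin, had 77.8 and 65.9 TPM of mRNA at P42, against 203 and 193 TPM at E15.5, and footprints of 21.1 and 19.3 TPM at P42, against 49.7 and 30.5 TPM at E15.5. Jph2 mRNA fell by 1.45 ± 0.35 log2 (adjusted p = 0.00048), a call lost under the other scalings (0.16 relative to the median gene), and its footprint difference was -0.92 ± 0.31, called lower without E15.5 replicate 2 (-1.26) and smaller without E15.5 replicate 1 (-0.57, adjusted p = 0.16).

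In all, 1 of the 10 genes was called higher in heart at P42 by mRNA (Hrc) and 5 lower (Sln, Casq1, Slc8a1, Cacna1c and Jph2), where 2.73% of the 12780 genes tested were called higher and 74.6% lower. Their median change was -1.22 log2, or 0.39 above the median gene. Under every scaling 1 was called higher and 2 lower (Sln and Slc8a1), where 2.73% of all genes were higher and 9.78% lower. By footprint 2 were called higher (Atp2a2 and Hrc) and 3 lower (Sln, Casq1 and Slc8a1), where 10.2% of 12521 genes were higher and 50.6% lower, and these 5 calls held under every scaling, where 10.2% were higher and 9.48% lower. The background depends on the scaling. By mRNA 4 of the 10 were called higher and 2 lower under median-of-ratios scaling, where 20.2% of all genes were higher and 14.4% lower, 3 higher and 3 lower with nuclear genes rescaled, where 6.7% were higher and 45.4% lower, and 3 higher and 3 lower after centring, where 16% were higher and 11.9% lower. By footprint 4 were higher and 3 lower under each of these scalings. All genes called by footprint were 19.5% higher and 11% lower under median-of-ratios scaling, 17% higher and 14.4% lower with nuclear genes rescaled, and 18.2% higher and 11.5% lower after centring.

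**Figure D2:**
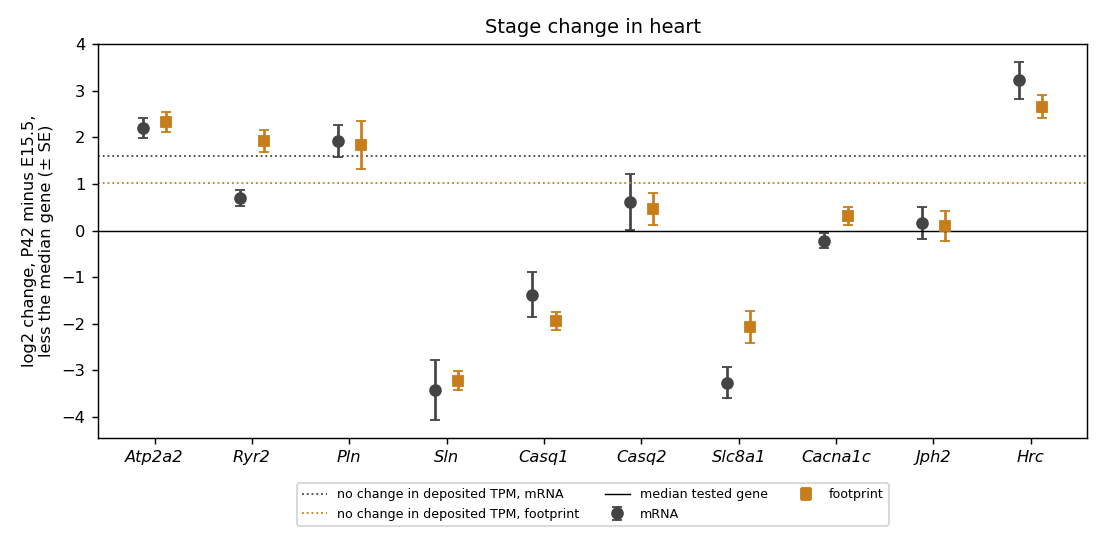
Change in heart, P42 minus E15.5, in log2 units relative to the median tested gene, for mRNA (circles) and footprints (squares), with standard errors; dotted lines mark no change in the deposited TPM. Hrc, Atp2a2 and Pln lie above the median gene in both layers, while Sln, Casq1 and Slc8a1 lie below it.

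The footprint to mRNA ratio set Slc8a1 apart from nearly every other gene. In heart the log2 ratio of Slc8a1 was 3.54 ± 0.36 at P42 and 1.75 ± 0.36 at E15.5, while the median gene stood at -0.77 at P42 and -0.90 at E15.5. It ranked at percentile 99.98 of 5757 genes at P42 and 99.90 of 10511 genes at E15.5. The same place was seen in brain (log2 ratio 4.95 at P42 and 1.58 at E15.5), kidney (3.77 at P42 and 2.21 at E15.5) and retina (2.36 at P42 and 0.53 at E15.5), and at E15.5 in lung (1.32). In E15.5 liver it was lower in rank, at percentile 90.1 with a log2 ratio of 0.40. In the other 9 tissues and stages that reached the floor of 5 TPM, the percentile was 99.77 or higher. Neuron markers summed to 17.4 and 4.72 TPM of footprints at P42 and 6.45 and 3.47 TPM at E15.5 in heart, against 1706 and 1558 TPM in P42 brain, with 2 of 4 tested called higher in heart at P42 (Snap25 and Syt1). By mRNA they summed to 2.20 and 2.14 TPM at P42 and 4.38 and 4.00 TPM at E15.5 in heart, and their part in the Slc8a1 ratio was not tested.

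The lowest ratios of the 10 in heart were those of Jph2 and Pln. Pln had a log2 ratio of -1.62 ± 0.47 at P42 and -2.13 ± 0.47 at E15.5 in heart, at percentile 19.5 at P42 and 8.77 at E15.5, with 5.65% of its exon bases coding. Jph2 had -1.78 ± 0.36 at P42 and -2.31 ± 0.36 at E15.5, at percentile 15.6 at P42 and 6.32 at E15.5, though 49.1% of its exon bases code. Sln, with a still shorter frame, stood at -0.93 ± 0.54 in E15.5 heart, at percentile 48.4.

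Between stages, 9 of the 10 genes reached the floor for a ratio test in heart, Sln being below it at P42. Of these, 3 were called higher at P42 and 0 lower, where 10.7% of 5583 genes were higher and 4.94% lower. The 9 ratios changed by a median of 0.54 log2, or 0.33 above the median gene. Ryr2 rose by 1.82 ± 0.30 log2 (adjusted p = 0.00011), to percentile 99.04 at P42, against 78.9 at E15.5. Slc8a1 rose by 1.79 ± 0.51 (adjusted p = 0.012). Both calls held under every scaling, where 1.24% of all genes were called higher and 4.14% lower. The Slc8a1 call was lost without P42 mRNA replicate 2 (1.22, adjusted p = 0.13) and without E15.5 footprint replicate 1 (1.47, adjusted p = 0.076). Cacna1c rose by 1.13 ± 0.24 (adjusted p = 0.0014), which fell under the threshold relative to the median gene (0.93) and without E15.5 footprint replicate 1 (0.93). The other 6 differed by 0.03 (Casq1 and Hrc) to 0.72 log2 (Atp2a2) without a call.

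**Figure D3:**
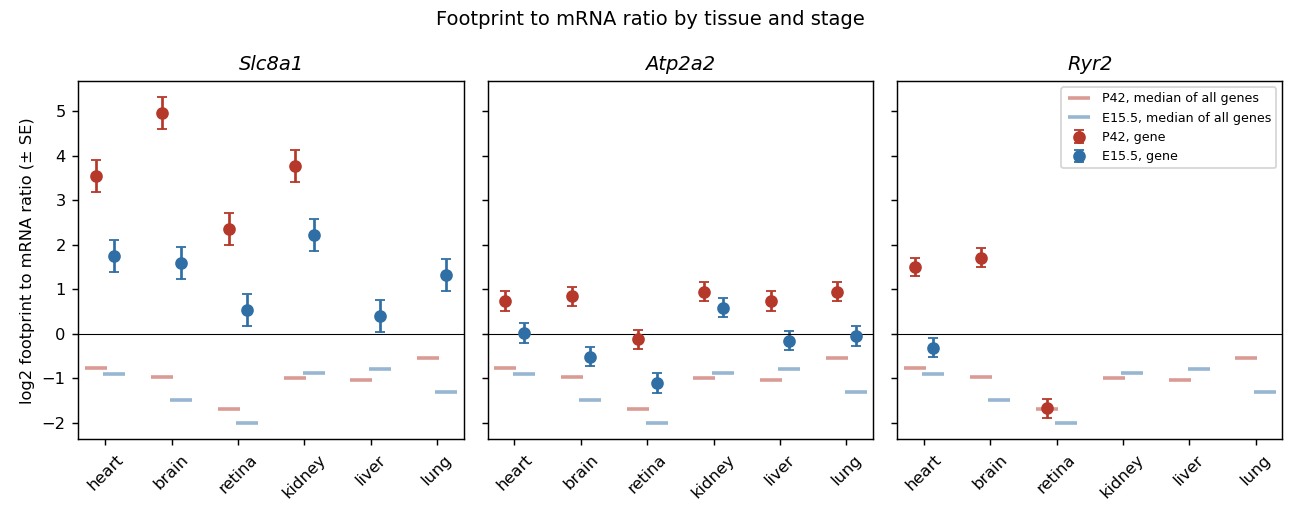
Log2 footprint to mRNA ratio with standard error for Slc8a1, Atp2a2 and Ryr2 in each tissue that reached 5 TPM of mRNA, P42 left of E15.5, heart first; short bars mark the median of all genes ranked. Slc8a1 lies above the median in each tissue and stage shown, by the most at P42 in brain.

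Heart held most of these genes above every other tissue. By mRNA, 6 of the 10 were called higher in P42 heart than in each of the other 5 tissues, and 9 of 10 in E15.5 heart, where 1.42% of 17171 genes met this at P42 and 2.9% at E15.5. By footprint it was 6 at P42 and 10 at E15.5, where 5.03% of 16715 genes met it at P42 and 3.36% at E15.5. All these counts were the same under every scaling, where 1.42% of genes met it at P42 and 2.71% at E15.5 by mRNA, and 5% at P42 and 2.63% at E15.5 by footprint. The 6 genes at P42, in both layers, were Atp2a2, Pln, Casq1, Casq2, Jph2 and Hrc. Pln showed the widest margin by mRNA, at 8.68 to 11.34 log2 above the other tissues at P42 and 9.06 to 11.03 at E15.5. Atp2a2 showed a narrow one, at 2.08 to 5.62 log2 at P42 and 2.32 to 3.39 at E15.5, with brain next at 283 and 323 TPM at P42.

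**Figure D4:**
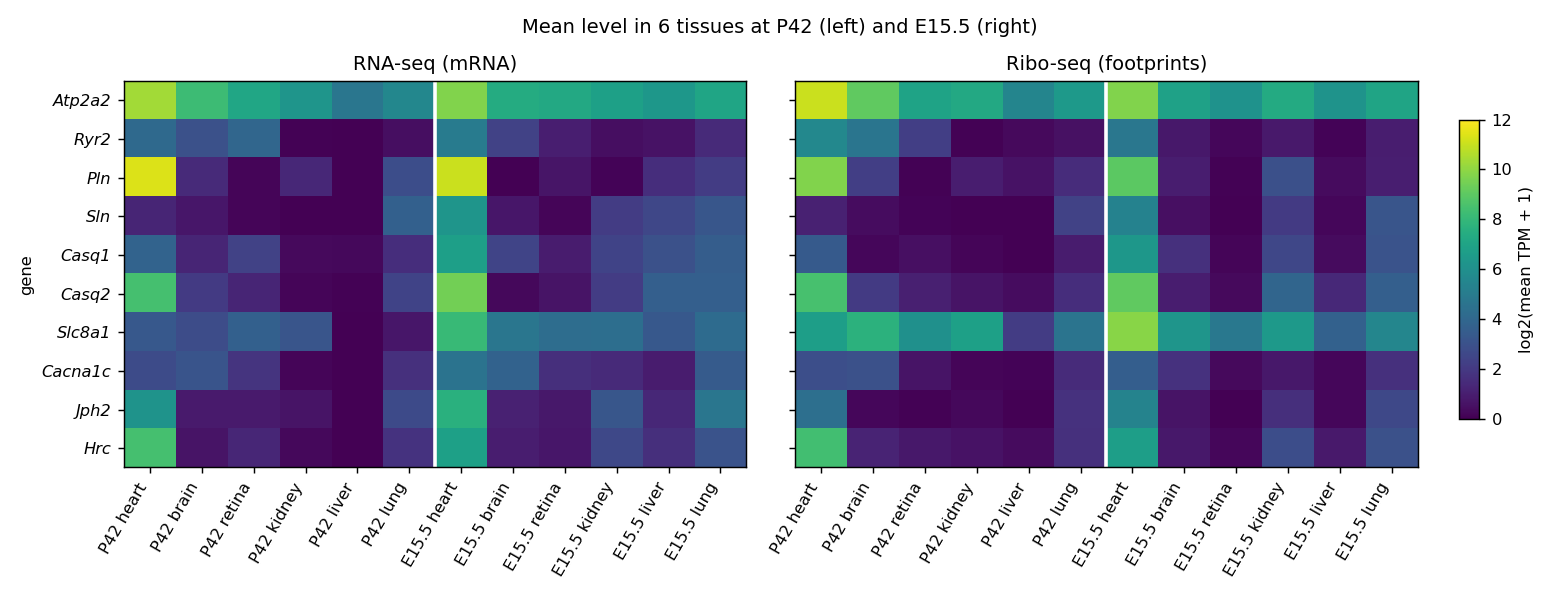
Mean level of each gene as log2(mean TPM + 1) in heart, brain, retina, kidney, liver and lung, P42 left and E15.5 right of the white line, for mRNA (left panel) and footprints (right panel); colour runs from dark (0) to yellow. Heart is the brightest column for most genes, and Slc8a1 footprints are bright in brain and kidney at P42 as well.

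The other 4 were not called above every other tissue at P42 in either layer. By mRNA Cacna1c was not at E15.5 either. Ryr2 mRNA in P42 heart (16.2 and 15.6 TPM) did not differ by the test from retina (18.1 and 11.0 TPM, log2 0.16 ± 0.18, adjusted p = 0.40), and was called above brain (6.71 and 6.92 TPM). By footprint it was 49.1 and 44.6 TPM in heart, against 26.3 and 23.0 TPM in brain and 3.69 and 3.79 TPM in retina, and heart was called above retina but not brain (0.90 ± 0.24). The Ryr2 message thus interleaved between heart and retina while its footprints did not, and the ratio was 3.17 ± 0.30 log2 higher in heart than in retina, where the median gene was 0.94 higher.

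Slc8a1 footprints were 111 and 101 TPM in P42 heart, against 221 and 197 TPM in brain, 125 and 102 TPM in kidney and 60.5 and 68.5 TPM in retina. None of these tissues differed from heart by the call, and the difference from brain was -0.97 ± 0.35 log2 (adjusted p = 0.018). At E15.5 heart had 724 and 1133 TPM and the next tissue, kidney, 77.8 and 101 TPM. Slc8a1 mRNA in P42 heart (12.7 and 5.21 TPM) likewise lay within the range of retina (14.7 and 9.32 TPM), kidney (4.94 and 10.8 TPM) and brain (4.91 and 6.83 TPM). Cacna1c in P42 heart (5.44 and 5.93 TPM of mRNA) stood beside brain (7.50 and 7.63 TPM), and their footprints differed by -0.13 ± 0.18 log2. At E15.5 the Cacna1c footprints in heart were 1.86 ± 0.18 log2 above brain.

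Sln changed its leading tissue. At P42 lung had 17.1 and 6.71 TPM of Sln mRNA, above the 0.960 and 1.77 TPM of heart, and the difference of heart minus lung was -2.34 ± 0.64 log2 (adjusted p = 0.0022). By footprint, heart had 1.28 and 0.980 TPM and lung 3.75 and 4.43 TPM, a difference of -1.26 ± 0.20 (adjusted p = 1.6e-05). At E15.5 heart was called above lung, where Sln mRNA was 13.2 and 3.20 TPM and footprints were 8.19 and 7.79 TPM. In lung Sln was not called between stages in either layer (0.61 ± 0.64 by mRNA and -0.82 ± 0.20 by footprint). Atrial markers were present in lung, at 216 and 121 TPM of mRNA at P42 and 809 and 248 TPM at E15.5, with Myl7 at 172.5 and 97.8 TPM at P42, above the 19.1 and 26.1 TPM of P42 heart. The 4 ventricular markers summed to 5.45 and 4.37 TPM of mRNA in P42 lung and to 18.0 and 9.90 TPM of footprints, with Myl2 at 0 and 0.0366 TPM by mRNA and 7.28 and 1.12 TPM by footprint. Within P42 lung and within E15.5 lung the library with more Myl7 mRNA was also the one with more Sln mRNA. By footprint the atrial markers summed to 36.7 and 61.9 TPM in P42 lung, in the same order as Sln. In E15.5 lung they summed to 617 and 627 TPM, in the opposite order to Sln. An order of 2 libraries is a description only, and the part of cardiac muscle in the Sln level was not tested.

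**Figure D5:**
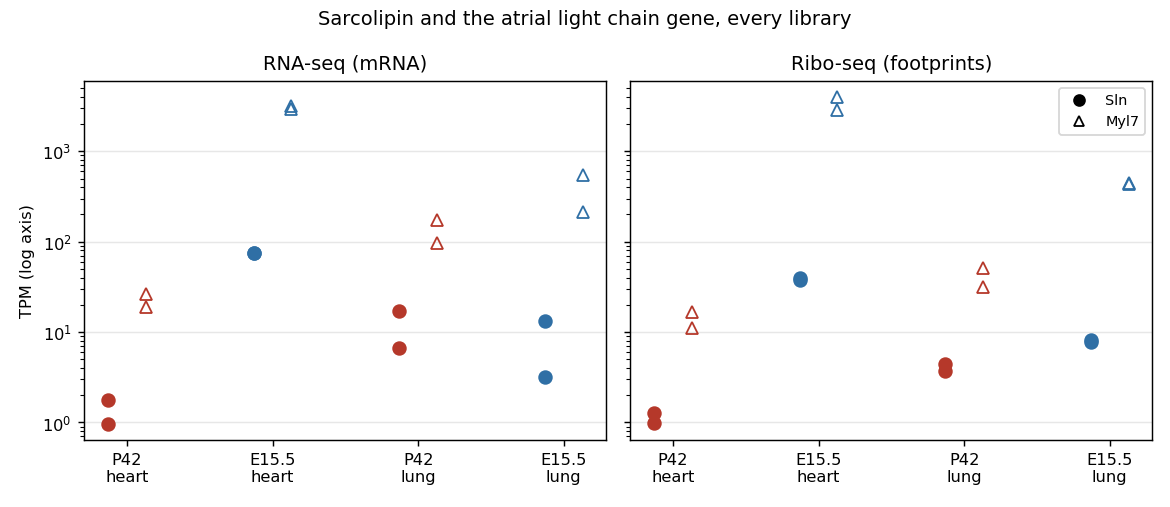
TPM on a log axis of Sln (filled circles) and the atrial light chain gene Myl7 (open triangles) in every heart and lung library, P42 left of E15.5 in each tissue, for mRNA and footprints. In P42 heart Sln lies at 0.960 and 1.77 TPM by mRNA, below both P42 lung libraries.

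Outside heart the genes took different courses in nervous tissue and in the other organs. In brain, 5 of 7 tested genes rose by footprint and 1 fell, where 20.2% of 13312 genes were called higher and 17.7% lower. All 6 calls held under every scaling, where 19.2% of genes were higher and 14.2% lower. These were Ryr2 (3.89 ± 0.24 log2), Atp2a2 (2.20 ± 0.22), Slc8a1 (1.44 ± 0.35), Cacna1c (1.29 ± 0.18) and Casq2 (1.14 ± 0.34), and the fall was Casq1 (-1.46 ± 0.19). Ryr2 footprints in brain were 26.3 and 23.0 TPM at P42, against 0.595 and 0.875 TPM at E15.5. By mRNA 1 of 6 tested genes rose in brain (Casq2, 1.77 ± 0.59) and 2 fell (Slc8a1, -1.92 ± 0.33, and Casq1, -1.22 ± 0.48), where 11.7% of 14449 genes were higher and 36% lower.

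Slc8a1 in brain thus lost message and gained footprints. Its mRNA was 4.91 and 6.83 TPM at P42, against 24.1 and 25.5 TPM at E15.5, and its footprints were 221 and 197 TPM at P42, against 68.7 and 84.7 TPM at E15.5. The brain ratio of Slc8a1 rose by 3.36 ± 0.51 log2 (adjusted p = 5.8e-06) and that of Cacna1c by 1.97 ± 0.24 (adjusted p = 1.6e-07), both under every scaling, where 7.91% of genes were called higher, and that of Atp2a2 by 1.35 ± 0.31, which did not hold under every scaling. These were 3 of 3 genes tested, where 27.7% of 9952 genes were called higher. In retina Slc8a1 also rose by footprint (1.23 ± 0.35), without a call by mRNA (-0.60 ± 0.33). Its ratio rose by 1.83 ± 0.51 there (adjusted p = 0.011), a call that did not hold under every scaling, and 1 of 2 ratios tested was called higher, where 11.8% of 10199 genes were. In retina Ryr2 rose in both layers, by 2.92 ± 0.18 log2 by mRNA and 2.03 ± 0.24 by footprint, and Casq1 rose by mRNA (1.42 ± 0.48). In retina 2 of 6 genes were called higher and 0 lower by mRNA, where 18.6% of 14015 genes were higher and 24.7% lower, and 2 of 3 were higher and 0 lower by footprint, where 21.3% of 11974 genes were higher and 16.2% lower.

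In the deposited TPM, no gene of the 10 was called higher in kidney, liver or lung in either layer. Over all genes the share called higher by mRNA was 10.1% in lung, 13.1% in kidney and 13.4% in liver. By footprint the shares were 18.6% in lung, 12.2% in kidney and 10.2% in liver. After centring on the median gene, 2 were called higher in lung by mRNA, where 23.2% of all genes were. By footprint 1 was then called higher in kidney, where 22% of all genes were. In kidney 6 of 7 fell by mRNA, where 43.9% of 14129 genes were called lower, and 6 of 8 by footprint, where 40.2% of 12940 genes were. Cardiomyocyte markers in kidney were 2.96 and 3.64 TPM of mRNA at P42 and 63.2 and 36.5 TPM at E15.5, and 17.05 and 10.97 TPM of footprints at P42 and 316 and 893 TPM at E15.5. Casq2 footprints in kidney were 0.769 and 0.337 TPM at P42, against 6.92 and 21.1 TPM at E15.5, the higher in the replicate with more of those markers. Without E15.5 replicate 2 by mRNA, the library with the lowest listed sum, 6 genes were still called lower in kidney and 1 was called higher (Pln, 1.28). In lung 6 of 10 fell by mRNA, where 53.5% of 14292 genes were called lower, and 5 of 9 by footprint, where 22.8% of 13261 genes were. Without E15.5 footprint replicate 2, it was 4 of 9 in lung. Cardiomyocyte markers in lung were 228 and 98.2 TPM of mRNA at P42 and 592 and 253 TPM at E15.5, and 154 and 101 TPM of footprints at P42 and 611 and 616 TPM at E15.5. In liver 6 of 6 fell by mRNA, where 47% of 12967 genes were called lower, and 1 of 2 by footprint, where 44% of 11274 genes were. Casq2 mRNA in E15.5 liver was 1.41 TPM in replicate 1 and 21.2 TPM in replicate 2, the library with 740 TPM of skeletal muscle markers. Without that library only Atp2a2 and Slc8a1 reached the filter in liver, and both fell (-1.78 and -3.33 log2). The part of neighbouring muscle in these values was not tested.

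The calls outside heart also moved with the scaling. Pooled over the 5 tissues, mRNA gave 3 calls higher at P42 and 20 lower in the deposited TPM, where 13.4% of all tests were higher and 40.9% lower. Under median-of-ratios scaling it was 7 higher and 12 lower, where 24.6% were higher and 18.7% lower, and after centring 7 higher and 8 lower, where 23.4% were higher and 19.3% lower. By footprint 13 calls were lower in the deposited TPM, where 27.9% of all tests were, 8 under median-of-ratios scaling, where 16% were, and 8 after centring, where 18% were.

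The stage change of heart was set against that of each other tissue by the interaction term in limma, called in either direction. All 10 genes passed the filter through heart, so for a gene below 1 TPM in the other tissue the difference repeats the heart change. By mRNA it differed from brain for 8 of the 10 genes, where 48.9% of 12780 genes did, and for 3 under every scaling, where 16.7% did. From retina it differed for 6, where 63.9% did, and for 4 under every scaling, where 19.2% did. From kidney it differed for 4, where 43.9% did, and for 3 under every scaling, where 16.4% did. From liver it differed for 5, where 49.7% did, and for 3 under every scaling, where 23.7% did, and from lung for 4, where 34% did, and for 3 under every scaling, where 16.7% did. The shares of the 10 in the deposited TPM were near the background for retina, kidney, liver and lung.

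By footprint the heart change differed from brain for 7 genes, where 52.5% of 12521 genes did, and for 4 under every scaling, where 21.7% did. From retina it differed for 7, where 58.6% did, and for 4 under every scaling, where 24.2% did. From kidney it differed for 7, also under every scaling, where 34.1% of genes did as deposited and 21.4% under every scaling. From liver it differed for 5, where 36.8% did, and for 4 under every scaling, where 25.4% did, and from lung for 6, where 44.8% did, and for 5 under every scaling, where 15.2% did. The 7 genes that differed from kidney were Atp2a2, Ryr2, Pln, Casq2 and Hrc, whose change was the more positive in heart, and Sln and Slc8a1, whose change was the more negative. In kidney the cardiomyocyte markers given above were lower at P42 as well, and their part in these differences was not tested. Counting only genes that reached the filter in the other tissue as well, the heart change by footprint differed for 5 of 7 in brain, 2 of 3 in retina, 6 of 8 in kidney, 2 of 2 in liver and 5 of 9 in lung, and by mRNA for 5 of 6 in brain, 4 of 6 in retina, 4 of 7 in kidney, 4 of 6 in liver and 4 of 10 in lung. Under every scaling, the footprint count was 2 in brain, 1 in retina, 1 in liver, 4 in lung and 6 in kidney, and the mRNA count was 1 in brain, 3 in retina, 3 in kidney, 2 in liver and 3 in lung. For counts with the filter in both tissues, the share of all genes was not computed, so they are a description only.

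The other genes of calcium cycling numbered 57 in 7 lists, of which 56 are in the tables. By mRNA in heart, 45 were tested, 1 was called higher at P42 and 34 lower, where 2.73% of all genes were higher and 74.6% lower. Under every scaling 1 was higher and 4 lower, where 9.78% of all genes were lower. By footprint 44 were tested, 0 were higher and 22 lower, where 10.2% of all genes were higher and 50.6% lower, and 3 were lower under every scaling, where 9.48% were. The counts of lower calls were thus near those of all genes. The riser was S100a1, a calcium sensor that acts on the release channel and the pump, with 1087 and 1098 TPM of mRNA at P42, against 349 and 325 TPM at E15.5 (1.70 ± 0.19 log2). By footprint it had 404 and 351 TPM at P42, against 260 and 205 TPM at E15.5, a difference of 0.71 ± 0.33 that did not pass.

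The 19 genes called lower in both layers were led by Ppp1r1a, a protein phosphatase inhibitor under control of protein kinase A. The share of all genes called lower in both layers was not computed. In single layers it was 74.6% by mRNA and 50.6% by footprint. Ppp1r1a had 3.25 and 3.24 TPM of mRNA at P42, against 94.3 and 85.7 TPM at E15.5 (-4.42 ± 0.20 log2). Next came the channel subunits Cacna2d2 (-4.06 ± 0.19) and Cacna1h (-3.26 ± 0.19). Cacna1h is the pore of a T-type channel, a current known from the embryonic heart. Cacna1h had 0.816 and 0.680 TPM of mRNA at P42, against 16.5 and 14.9 TPM at E15.5. Fkbp1b, which binds the ryanodine receptor, fell by 2.70 ± 0.22 log2, the plasma membrane pump Atp2b4 by 2.63 ± 0.20 and the kinase Camk2g by 2.63 ± 0.20. The first 4 of these 6 held under every scaling by mRNA, and Ppp1r1a and Cacna2d2 also did so by footprint, as did the adenylyl cyclase Adcy5 (-2.14 ± 0.22).

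By list, release channel paralogs and partners had 1 higher and 10 lower of 12 tested by mRNA, and 0 higher and 4 lower of 12 by footprint. Calcium channel subunits had 7 lower of 9 by mRNA and 4 of 8 by footprint, beta-adrenergic and kinase genes 7 of 8 by mRNA and 6 of 8 by footprint, and mitochondrial calcium uptake genes 3 of 5 by mRNA and 4 of 5 by footprint. Junction and T-tubule genes had 3 lower of 5 in each layer, exchangers and surface pumps 3 of 4 by mRNA and 1 of 4 by footprint, and pump paralogs and small pump regulators 1 of 2 by mRNA and 0 of 2 by footprint. By mRNA most of these counts lie near the 74.6% of all genes called lower. By footprint they lie on both sides of the 50.6% called lower, in lists of few tested genes. Under every scaling, the genes called lower were 2 channel subunits, 1 release channel partner and 1 beta-adrenergic or kinase gene by mRNA, and 1 channel subunit and 2 beta-adrenergic or kinase genes by footprint. None of these lists had a gene called higher by footprint. The ratio rose for Calm2, a calmodulin gene (2.26 ± 0.40 log2), and fell for Smdt1, a subunit of the mitochondrial uniporter (-1.51 ± 0.41), both under every scaling.

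Each gene had a nearest companion in its pattern over the 12 group means by mRNA, among 15667 genes. Pln was nearest to Myl3, a ventricular myosin light chain (r = 0.991), and Trdn, the triadin that binds the release channel and calsequestrin (0.991). Casq2 was nearest to Ckm, muscle creatine kinase (0.986), and Cav3, caveolin of muscle (0.985), Hrc to Rbp7 (0.985) and Ckm (0.979), and Jph2 to Smpx (0.975) and cardiac actin Actc1 (0.968). Sln was nearest to Gja5, a connexin of atrium and conduction system (0.941), and Cnn1, smooth muscle calponin (0.934), which had 0.527 and 108 TPM as means of P42 and E15.5 heart. Ryr2 was nearest to Strip2 (0.955) and Usp13 (0.906), Casq1 to Dusp27 (0.953) and Trim55 (0.924), and Cacna1c to Ppp1r3d (0.921) and Ppp1r14c (0.906). Slc8a1 was nearest to Polr1e (0.942) and Ciao2b (0.919), and Atp2a2 to citrate synthase Cs (0.916) and Lrrc14b (0.904). Over footprints the same pairs gave r from 0.615 (Slc8a1 and Polr1e) to 0.990 (Casq2 and Ckm). These correlations are descriptions over groups that share libraries.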

How the data were processed

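RNA-seq and Ribo-seq were measured in 48 libraries of 6 tissues at 2 stages. Lysis of the frozen tissues with cycloheximide, footprint libraries by the ARTseq kit with Ribo-Zero depletion, and mRNA libraries from poly(A)+ RNA are stated per the labels' protocols. Per the submitters' processing notes, CASAVA 1.8.2, cutadapt 1.8.1, TopHat2 2.0.14, Subread, featureCounts 1.6.2 and GRCm38.p6 were used. The deposited values are TPM made by the authors, in 4 tables, 1 for each stage and assay. Differences between stages cross tables, and neither the features behind each TPM total nor any joint scaling of the tables is stated in the sources used here. Depth is unknown. Of 22055 gene IDs, 22029 matched GENCODE M21 without the version.

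Values were analysed as log2(TPM + 1) with limma 3.58.1 in R 4.3.3, a group for each tissue, stage and assay, trended empirical Bayes variances and Benjamini-Hochberg adjustment over all tested genes. Calls needed an adjusted p below 0.05 and 1 log2. A gene was tested if 2 of the 24 libraries of the assay and the mean of the tissue's libraries reached 1 TPM, and a ratio if mean mRNA reached 5 TPM at both stages. The spread rests on 12 residual degrees of freedom per assay and 24 over both. The scripts were tested on simulated data. Tables and figures used Python 3.11.15, pandas 2.3.3, numpy 2.4.6, scipy 1.17.1 and matplotlib 3.10.9. The members and lists were chosen with earlier results of these data known. The genes named are the 10 members, the 6 largest mRNA falls among other listed genes called lower in both layers, and the 2 most correlated genes of each member. The rule also asked for the 6 largest rises, but 0 of the other listed genes were called higher in both layers. S100a1, Calm2, Smdt1, Adcy5 and Cep85l were named after their values were seen. Alternatives were pseudocounts of 0.25 and 4, other scalings and filters, no variance trend, heart libraries alone, a replicate block and libraries left out.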

Additional observations from a re-analysis of the deposited data

Results flagged for a closer look

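The stage change differed between heart and other tissues by the interaction term in limma, with the shares of all genes, and the counts over genes that reached 1 TPM in both tissues, given above. By mRNA it differed for 8 of the 10 calcium handling genes from brain (48.9% of all genes) and 6 from retina (63.9%). From kidney it was 4 (43.9%), from liver 5 (49.7%) and from lung 4 (34%). By footprint it differed for 7 from brain (52.5% of all genes), 7 from retina (58.6%) and 7 from kidney (34.1%). From liver it was 5 (36.8%) and from lung 6 (44.8%).

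Changes called in opposite directions in heart and another tissue involved 3 genes. Hrc rose in heart and fell in kidney and lung in both layers and in liver by mRNA, and by mRNA its change in heart exceeded that of kidney by 3.91 ± 0.56 log2, of liver by 2.85 ± 0.56 and of lung by 3.00 ± 0.56. By footprint the Hrc change in heart exceeded that of kidney by 3.92 ± 0.35 and of lung by 2.97 ± 0.35. Cardiomyocyte and skeletal muscle markers were also lower at P42 in kidney and lung in both layers. In kidney the skeletal muscle markers were 4.00 and 3.04 TPM of mRNA at P42 and 144 and 88.5 TPM at E15.5. Their footprints there were 1.75 and 1.90 TPM at P42 and 208 and 239 TPM at E15.5. The part of muscle in these Hrc differences was not tested. In liver the Hrc fall rests on E15.5 replicate 2, with 3.96 TPM against 0.147 TPM in replicate 1, and without it Hrc is below the filter in liver. Slc8a1 footprints fell in heart and rose in nervous tissue, with a difference of -4.52 ± 0.49 from brain and -4.31 ± 0.49 from retina. Casq1 mRNA fell in heart and rose in retina, with a difference of -4.41 ± 0.68. All 8 of these differences held under every scaling. The Hrc falls within liver and lung and the Casq1 mRNA fall within heart did not.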

How the results depend on the processing

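Scaling was the choice that moved most. By mRNA in heart, the genes called higher at P42 numbered 4 under median-of-ratios scaling, 3 with nuclear genes rescaled and 3 after centring (1 as deposited), and those lower 2, 3 and 3 (5 as deposited). By footprint in heart, 4 were higher under each (2 as deposited). In the other 5 tissues, mRNA calls came to 7 higher under median-of-ratios scaling and 7 after centring (3 as deposited), and 12 and 8 lower (20 as deposited), and footprint calls to 8 and 8 lower (13 as deposited). The ratio in heart was called higher for 0 genes with the stricter filter, under which the 3 called genes are not tested, and for 1 without E15.5 footprint replicate 1. Signs turned under median-of-ratios scaling and centring for mRNA of Ryr2 (1.04 and 0.70), Casq2 (1.02 and 0.62) and Jph2 (0.55 and 0.16), and under median-of-ratios scaling alone for Cacna1c (0.020). By footprint they turned under median-of-ratios, nuclear rescaling and centring for Casq2 (0.77, 0.56 and 0.46), Cacna1c (0.50, 0.31 and 0.31) and Jph2 (0.37, 0.17 and 0.098). Ratio signs turned under median-of-ratios scaling for Pln (-0.17), Casq1 (-0.66), Casq2 (-0.25), Jph2 (-0.18) and Hrc (-0.66), and after centring for Casq1 (-0.17) and Hrc (-0.18). The cause was not tested. Of the turned signs, mRNA of Jph2 and Cacna1c was called lower as deposited, and that of Ryr2 higher under median-of-ratios scaling. Leaving out 1 library moved the heart ratio change of Casq1 between -0.17 and 0.23 and of Hrc between -0.12 and 0.18, and the log2 Pln to Atp2a2 footprint ratio change between -1.06 and 0.064 (-0.50 with all), positive without E15.5 replicate 1. The replicate block changed no call: 1 higher and 5 lower by mRNA, 2 higher and 3 lower by footprint. The r of replicate deviations ran from -0.24 to 0.34 between mRNA and footprint of the same tissue and stage. Over 66 tissue pairs it ran from -0.49 to 0.36 by mRNA (13 over 0.1) and from -0.58 to 0.59 by footprint (10 over 0.1). With 2 replicates a group, these values cannot decide whether replicate numbers pair the libraries. With 2 replicates and no counts, the precision of low values such as Sln at P42 is unknown.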
